A study of Mus musculus with 6 samples.

Results

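Enniatin A (EnnA) and 17-AAG were compared with each other, gene by gene, in E0771 cells, a breast cancer cell line established from a C57BL/6 mouse. All cells had grown for 48 h. EnnA was given at 7.4 µM for 24 h and 17-AAG at 0.5 µM for 24 h, and the solvent control DMSO carries no stated exposure time. Each of the 3 groups had 2 RNA sequencing libraries, and the labels do not say whether those came from separate cultures. The authors deposited 1 table per compound against the same DMSO group, with a single pooled FPKM (fragments scaled to transcript length and library size) per gene and group. No value below therefore has a standard deviation or an n of its own, and depth per library is unknown.

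A gene entered the comparison if it stood in both tables and reached 1 FPKM in at least 1 of the compounds. This held for 10660 of the 10932 genes that the tables share. Of the 10660 genes, 10023 reached 1 FPKM with both compounds, 107 with EnnA alone and 530 with 17-AAG alone. The gene nearest above the limit had 1.001 FPKM and the nearest below it 0.997. To bring the tables to 1 scale, 17-AAG values were multiplied by 0.913, the median ratio of the DMSO columns, from which 1 gene of 10932 departed by more than 1%. The direct ratio is log2 of EnnA over 17-AAG after 1 FPKM was added to each, so a positive value means a higher level with EnnA. Adding 1 FPKM understates the ratio of genes with low levels.

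EnnA is a cyclic depsipeptide made by Fusarium fungi that binds cations and carries them across membranes. 17-AAG is a benzoquinone ansamycin, derived from geldanamycin, that occupies the nucleotide pocket of HSP90. Cells read out damage to protein folding through separate programmes. In the cytosol, inhibition of HSP90 frees heat shock factor 1, which raises HSP70, HSP90 and their partners. In the endoplasmic reticulum (ER), the sensors IRE1, PERK and ATF6 raise ER chaperones, and PERK shares with other kinases the phosphorylation of eIF2alpha, which favours translation of ATF4 and hence the integrated stress response. Type I interferon acts through its own receptor on another set of genes. The doses differ and each compound was measured at 1 dose and 1 time, so the values carry no order of potency.

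Promoter sequence is shown for 6 genes that were at least 2-fold apart and whose 250 bases before the transcription start hold a motif of one of these programmes. The sequences are RefSeq's on GRCm38.p6, another build than the mm9 of the deposited tables, and run 5′ to 3′ on the strand of the gene. For each motif they are the holders with the largest direct ratio, in favour of EnnA for the first and second motif and of 17-AAG for the third, among the matching gene list and the genes named by size. Capitals mark the motif on either strand. The first pair carries the ER stress response element, CCAAT and CCACG with 9 bases between them, bound by ATF6 with NF-Y. Hspa5 (chr2:34771840-34772089, plus strand) encodes the ER chaperone BiP and holds it from position -65. Creld2 (chr15:88819396-88819645, plus strand) encodes a secreted ER protein and holds it in reverse from position -126.
Hspa5: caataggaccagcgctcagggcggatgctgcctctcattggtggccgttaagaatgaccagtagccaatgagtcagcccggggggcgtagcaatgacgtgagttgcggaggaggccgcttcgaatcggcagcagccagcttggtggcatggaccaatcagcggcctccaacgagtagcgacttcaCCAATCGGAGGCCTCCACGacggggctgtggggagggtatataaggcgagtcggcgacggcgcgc
Creld2: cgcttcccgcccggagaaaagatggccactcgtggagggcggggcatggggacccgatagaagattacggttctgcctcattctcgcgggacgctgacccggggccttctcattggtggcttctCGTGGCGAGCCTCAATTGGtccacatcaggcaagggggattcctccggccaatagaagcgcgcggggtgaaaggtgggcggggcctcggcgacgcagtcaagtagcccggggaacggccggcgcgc

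The next pair carries TGATG and AA with 1 base between them, the core of the C/EBP-ATF element that ATF4 binds with C/EBP partners. Chchd10 (chr10:75932880-75933129, plus strand) encodes a mitochondrial intermembrane space protein and holds 2 matches, the first from position -85. Atf3 (chr1:191183334-191183583, minus strand) encodes a stress-induced transcription factor and holds 1 match, in reverse, from position -110.
Chchd10: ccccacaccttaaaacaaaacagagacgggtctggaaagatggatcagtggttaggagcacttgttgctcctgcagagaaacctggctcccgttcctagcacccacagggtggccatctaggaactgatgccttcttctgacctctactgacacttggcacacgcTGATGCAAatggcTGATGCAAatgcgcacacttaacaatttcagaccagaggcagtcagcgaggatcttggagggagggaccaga
Atf3: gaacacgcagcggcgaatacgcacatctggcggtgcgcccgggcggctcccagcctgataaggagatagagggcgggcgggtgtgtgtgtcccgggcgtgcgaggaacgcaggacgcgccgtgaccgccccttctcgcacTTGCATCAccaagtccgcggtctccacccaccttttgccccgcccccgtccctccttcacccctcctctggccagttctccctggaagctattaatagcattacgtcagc

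The last pair carries GAAA and GAAA with 2 bases between them, the core of the interferon-stimulated response element. Apol9b (chr15:77728822-77729071, plus strand), an apolipoprotein L gene, holds 2 overlapping matches from position -37. Ifit1 (chr19:34640639-34640888, plus strand) encodes an antiviral protein that binds foreign RNA ends and holds 2 matches, the first from position -104.
Apol9b: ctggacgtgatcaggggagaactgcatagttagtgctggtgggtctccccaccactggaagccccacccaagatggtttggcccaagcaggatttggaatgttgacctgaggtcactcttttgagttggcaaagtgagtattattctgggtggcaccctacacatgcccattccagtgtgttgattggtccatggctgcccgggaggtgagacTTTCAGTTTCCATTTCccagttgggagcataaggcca
Ifit1: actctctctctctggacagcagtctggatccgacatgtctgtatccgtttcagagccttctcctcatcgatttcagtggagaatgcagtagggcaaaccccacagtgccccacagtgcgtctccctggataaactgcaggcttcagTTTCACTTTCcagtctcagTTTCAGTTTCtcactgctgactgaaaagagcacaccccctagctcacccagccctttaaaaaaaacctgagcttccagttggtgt

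These genes were chosen by their direct ratio, so the direction of their levels was set by the choice and is a description. Hspa5 was at 339.8 FPKM with DMSO, 1532 with EnnA and 265 with 17-AAG, and Creld2 at 25.1, 47.5 and 14.98 FPKM in the same order. Chchd10 was at 6.85 FPKM with DMSO, 212 with EnnA and 15.8 with 17-AAG, and Atf3 at 15.9, 111 and 25.1 FPKM in that order. Apol9b was at 2.16 FPKM with DMSO, 1.12 with EnnA and 13.4 with 17-AAG, and Ifit1 at 5.65, 9.87 and 59.5 FPKM in that order. The first 4 were highest with EnnA and the last pair highest with 17-AAG.

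Over all genes, EnnA gave a level at least 2-fold above that with 17-AAG for 648 of 10660 genes (6.08%), and 17-AAG gave the higher level for 745 (6.99%). Together these were 1393 genes (13.1%). The split between the directions rested on the scaling: with the FPKM sums of the compounds matched, the counts were 204 and 2064, and with the values left unscaled they were 481 and 968. The median direct ratio was 0.03 on the log2 scale, and the middle 90% of genes lay between -1.14 and 1.08. At 4-fold the counts were 50 and 64. The genes higher with EnnA had a median of 70.3 FPKM with EnnA, whereas those higher with 17-AAG had a median of 8.84 FPKM with 17-AAG. In the lower-level compound, 631 of the 648 and 544 of the 745 genes still reached 1 FPKM.

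**Figure D1:**
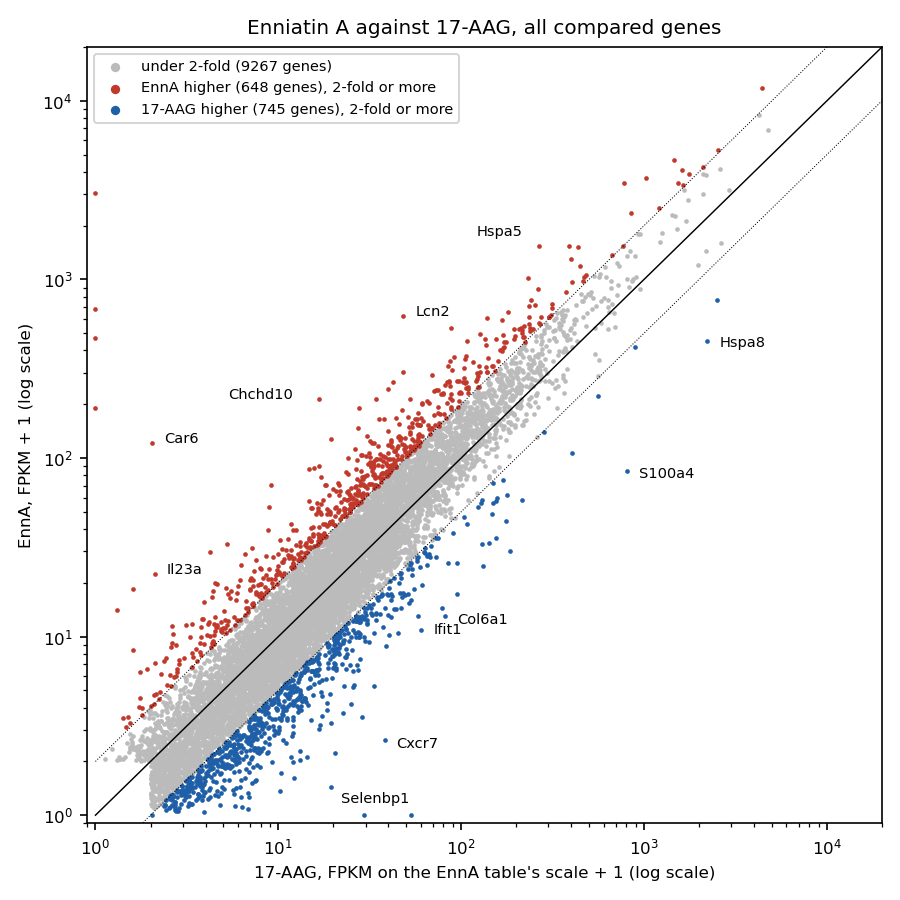
Pooled FPKM + 1 with EnnA (vertical) against 17-AAG on the EnnA table's scale (horizontal), both on log axes, for 10660 genes. Dotted lines mark 2-fold, red points the 648 genes at least 2-fold higher with EnnA and blue points the 745 higher with 17-AAG, which lie mostly at low levels.

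The size of a difference was set against error by a z test of the EnnA log2 change over DMSO minus the 17-AAG log2 change over DMSO. The standard error (SE) of each change was derived from the authors' p, and q was adjusted by Benjamini-Hochberg over all 10922 genes tested. An SE is written "at most" where a p stood at the lowest value the authors' tables list, which touched 3402 of the tested genes. An upper limit makes the test stricter, so a gene that did not pass may still differ. At q under 0.05, 2110 genes (19.3%) were higher with EnnA and 2059 (18.9%) higher with 17-AAG. Among the compared genes these were 2105 (19.8%) and 2025 (19%). Of the genes at least 2-fold apart, 609 of 648 and 710 of 745 passed. The test reads nearly the same difference as the direct ratio, so these shares are not separate support for it. Where 3 levels follow a gene without group names, they are in the order DMSO, EnnA, 17-AAG. An SE below belongs to this difference, which has no added FPKM, and "passed" refers to this test.

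Against DMSO, the tables show which compound had moved. In the authors' deposited table for EnnA (q under 0.05), 24.5% of the compared genes were called higher and 24.9% lower than DMSO, and in that for 17-AAG 14.8% and 16.6%. Of the 648 genes at least 2-fold higher with EnnA than with 17-AAG, the authors' deposited table for EnnA calls 567 higher and 5 lower than DMSO, and that for 17-AAG calls 33 higher and 329 lower. Of the 745 genes in the other direction, the authors' deposited table for EnnA calls 7 higher and 640 lower, and that for 17-AAG calls 388 higher and 32 lower. Since these genes were chosen by the ratio of the compounds, their directions against DMSO are a description.

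Expression level and transcript length moved with the direct ratio across all genes. From the lowest to the highest decile of DMSO expression, the median log2 ratio went from -0.38 to 0.43. From the shortest to the longest decile of transcripts it went from 0.38 to -0.09, using GENCODE M21 lengths that matched 99.2% of genes. Summed FPKM over the compared genes was 586085 with EnnA, 427051 with 17-AAG and 518957 with DMSO, so matching the sums would lower every log2 ratio by 0.46. The median of every gene list below moves by that amount with sums matched, and lists whose median then turns sign are pointed out. A median after the trend with level and length was taken out ("trend removed") is given where it turned sign or moved by more than 1.5 times. What part these properties have in the result of a list was not tested. Locus entries overlap for 1194 of the compared genes, which are uncertain and are marked as sharing a locus where named.

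**Figure D2:**
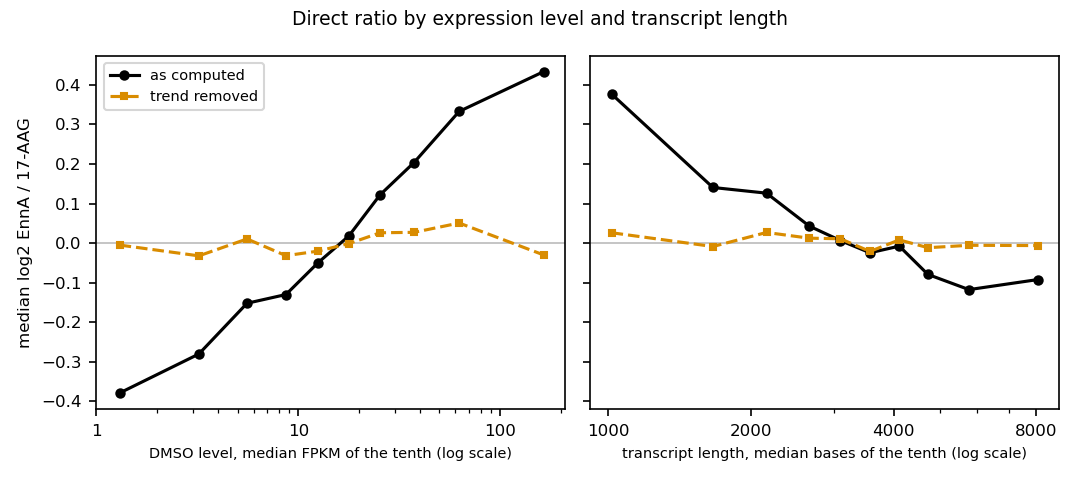
Median log2 ratio of EnnA over 17-AAG (vertical) in deciles of the genes by DMSO level in FPKM (left) and by transcript length in bases (right), both on log axes, as computed (black) and with the trend removed (orange). As computed, the median climbs from -0.38 to 0.43 with level and goes from 0.38 to -0.09 with length.

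Markers of cell identity were few. Of 6 epithelial markers, Epcam and Krt8 stood in both tables, at 1.61, 1.85 and 1.66 FPKM and 17.7, 11.2 and 26.7 FPKM. None of 8 lymphocyte, 4 endothelial or 3 adipocyte markers did. Of 6 myeloid markers Cd68, a lysosomal glycoprotein, was at 37.95, 89.1 and 15.6 FPKM and Lyz2 at 12.2, 8.73 and 14.4 FPKM, and of 5 fibroblast markers Col1a1 was at 0.566, 0.364 and 3.602 FPKM and Pdgfra at 10.1, 26.5 and 12.1 FPKM. Summed over the listed myeloid markers the levels were 50.1, 97.9 and 30.1 FPKM, and over the fibroblast markers 10.7, 26.9 and 15.7 FPKM. Their part in the results was not tested.

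By size, the 15 genes with the largest direct ratio in favour of EnnA, among genes with at least 5 FPKM in 1 compound that passed, were led by a carbonic anhydrase. Car6, which encodes a secreted carbonic anhydrase, was at 1.06 FPKM with DMSO, 119.7 with EnnA and 1.03 with 17-AAG, a 59.5-fold difference (log2 ratio 5.896, SE at most 1.703). Lcn2, which encodes an iron-siderophore binding protein, was at 109 FPKM with DMSO, 621 with EnnA and 47.03 with 17-AAG, 12.9-fold apart (log2 ratio 3.69, SE at most 0.69). For Car6 the 17-AAG level was at that of DMSO, while for Lcn2 it was below DMSO. Chchd10 followed at log2 3.67 (SE at most 1.26). Il23a, a subunit of the cytokine IL-23, was at 2.43 FPKM with DMSO, 21.4 with EnnA and 1.103 with 17-AAG (log2 ratio 3.41, SE at most 0.84). The cationic amino acid transporter gene Slc7a3 was at 9.94 FPKM with DMSO, 69.4 with EnnA and 8.09 with 17-AAG (log2 ratio 2.95, SE at most 0.71).

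The other genes of these 15 had varied roles. Ppp1r15a, whose product GADD34 directs dephosphorylation of eIF2alpha, was at 15.9 FPKM with DMSO, 189 with EnnA and 26.7 with 17-AAG (log2 ratio 2.78, SE at most 0.90). Fkbp11, an ER-bound prolyl isomerase, was at 89.3, 264 and 41.5 FPKM, and Vimp, the selenoprotein of ER-associated degradation, at 60.1, 241 and 38.6 FPKM. Both were above DMSO with EnnA and below it with 17-AAG. Zfand2a, a proteasome-associated protein induced by arsenite, was at 19.4, 86.2 and 13.7 FPKM, and the glucocorticoid-induced leucine zipper gene Tsc22d3 at 16.8, 51.98 and 7.92 FPKM. Ankrd33b (23.8, 127 and 18.5 FPKM), Cyb5r1 (37.2, 302 and 46.9 FPKM), 5430416N02Rik (51.01, 535 and 86.7 FPKM) and the chemokine gene Ccl4 (7.29, 31.9 and 4.27 FPKM) completed the set with Rpl27. Rpl27, a ribosomal protein gene, was at 27.6, 28.9 and 3.24 FPKM and is uncertain, because ribosomal protein genes have near-identical processed copies.

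The 15 genes with the largest ratio in favour of 17-AAG were led by a chemokine receptor. Cxcr7, an atypical receptor that takes up CXCL12, was at 33.1 FPKM with DMSO, 1.64 with EnnA and 37.5 with 17-AAG, 14.6-fold apart (log2 ratio -3.87, SE at most 1.08). Here 17-AAG left the level near that of DMSO and EnnA was far below both. Selenbp1, a selenium-binding methanethiol oxidase, was at 8.93 FPKM with DMSO, 0.448 with EnnA and 18.4 with 17-AAG (log2 ratio -3.74, SE at most 1.095). S100a4, an EF-hand protein with a role in motility, was at 1547 FPKM with DMSO, 83.3 with EnnA and 802 with 17-AAG (log2 ratio -3.25, SE at most 1.07), so both compounds gave a level below DMSO and EnnA the lower. Ifi27l2a, an interferon-induced gene, was at 11.9 FPKM with DMSO, 1.24 with EnnA and 19.5 with 17-AAG (log2 ratio -3.19, SE 0.91).

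Further members of that group included Sept4, a septin gene, at 11.7, 2.54 and 27.8 FPKM, and Angptl4, an inhibitor of lipoprotein lipase, at 1.64, 0.364 and 9.22 FPKM. Col6a1, a chain of collagen VI, was at 42.6, 12.1 and 80.7 FPKM, and the vitamin D receptor gene Vdr at 0.949, 0.978 and 11.04 FPKM. Vdr was at the DMSO level with EnnA, whereas the other 3 were below DMSO with EnnA and above it with 17-AAG. Lipn (14.1, 0.617 and 11.2 FPKM), Paqr7 (9.74, 1.04 and 12.1 FPKM) and Cbr2 (26.7, 4.29 and 32.2 FPKM) had 17-AAG levels near DMSO. Lrrc15 (1.01, 0.0769 and 5.84 FPKM), Samd9l (11.6, 2.74 and 21.7 FPKM), S100a11 (208, 29.3 and 183 FPKM) and Apol9b were the remaining ones.

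Of 31 gene lists with 1057 genes, 938 genes were among those compared. Counts of genes that passed in a list are read beside the 19.8% and 19% of all compared genes that passed for EnnA and for 17-AAG. In the strip plot of the lists, interferon genes stood at one end and efflux, ribosomal protein, integrated stress response and ER folding genes at the other.

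**Figure D3:**
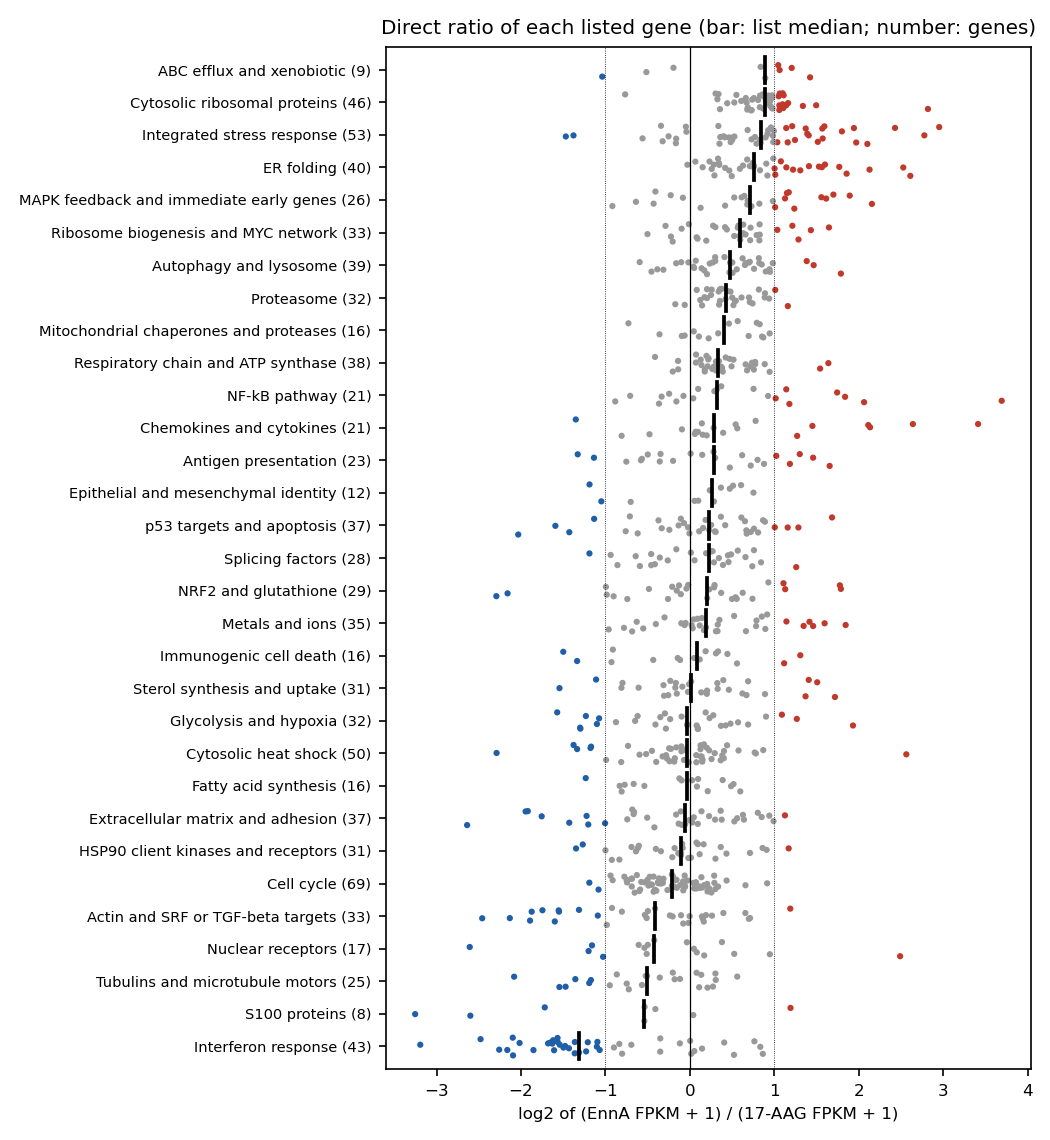
Log2 of (EnnA FPKM + 1) over (17-AAG FPKM + 1) on the horizontal axis for each gene (point) of 31 lists (rows), with the list median as a black bar and the number of genes in brackets. Red and blue points are at least 2-fold higher with EnnA and with 17-AAG, dotted lines mark 2-fold, and medians run from -1.31 (interferon response) to 0.89.

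Genes for folding in the ER were higher with EnnA than with 17-AAG. Of 40 genes, 27 passed in favour of EnnA and 0 in favour of 17-AAG, against 19.8% and 19% of all compared genes, and 15 against 0 were at least 2-fold apart. The median log2 ratio was 0.76, beside 0.03 over all genes (0.30 with sums matched). Against DMSO, 28 of the 40 were called higher and 1 lower with EnnA, and 1 higher and 16 lower with 17-AAG, in the authors' deposited tables.

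Among the 16 chaperone genes, 13 passed, all in favour of EnnA. Hspa5 had a log2 ratio of 2.53 (SE at most 0.55). Manf, a secreted ER protein that protects neurons, was at 58.3 FPKM with DMSO, 165 with EnnA and 36.9 with 17-AAG (log2 ratio 2.13, SE at most 0.40). Hyou1, the large HSP70 of the ER, was at 33.6 FPKM with DMSO, 103 with EnnA and 27.6 with 17-AAG (log2 ratio 1.86, SE at most 0.42). Sdf2l1, a partner of BiP, was at 45.3, 71.3 and 20.2 FPKM and passed. Hsp90b1, which encodes the ER form of HSP90 that 17-AAG also binds, was at 714 FPKM with DMSO, 1072 with EnnA and 572 with 17-AAG (log2 ratio 0.91, SE 0.22). It was called higher than DMSO in the authors' deposited EnnA table and not called in their 17-AAG table.

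Of 9 disulfide enzyme genes 5 passed, among them the protein disulfide isomerases Pdia5 (18.9, 29.9 and 9.43 FPKM), Pdia6 (511, 692 and 313 FPKM) and Pdia4 (179, 277 and 139 FPKM). For all 3 the level with EnnA was above DMSO and that with 17-AAG below. Of 11 genes of ER-associated degradation 6 passed, with Selk at 31.8, 46.5 and 19.4 FPKM and Derl1, a channel component, at 32.4, 68.9 and 33.9 FPKM. Of the 4 sensor genes 3 passed: Xbp1, the transcription factor spliced by IRE1, was at 56.4 FPKM with DMSO, 95.6 with EnnA and 32.5 with 17-AAG (log2 ratio 1.53, SE at most 0.27). Atf6 was at 32.5, 73.2 and 26.9 FPKM and Ern1, which encodes IRE1, at 2.85, 6.78 and 3.62 FPKM. Eif2ak3, which encodes PERK, was at 8.89, 9.81 and 7.57 FPKM and did not pass.

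Letters in the promoters were counted over the 8563 compared genes with a RefSeq promoter (80.3%). The ER stress response element was in 17 (0.199%). Of these, 6 were at least 2-fold higher with EnnA and 0 higher with 17-AAG, beside 5.80% and 6.93% of all promoters searched, and 12 against 0 passed. The 17 genes included Hspa5, Creld2, Calr, Pdia6, Hsp90b1, Canx, Dnajc3 and Syvn1 of ER folding, and also Xlr3a, Xlr3b and Xlr3c, near-identical copies whose reads and promoters are not independent. Pan2, Hnrnpa3 and Adcy3 also held it, with log2 ratios of -0.02, -0.55 and -0.48, and did not pass. The median log2 ratio of the 17 genes was 0.75, and 14 were above 0. A match describes letters in this window and not a bound site.

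The integrated stress response was higher with EnnA in most of its arms. Of 53 genes, 34 passed in favour of EnnA and 3 in favour of 17-AAG, 19 against 2 were at least 2-fold apart, and the median log2 ratio was 0.84 (0.38 with sums matched). Amino acid synthesis genes passed in favour of EnnA in 9 of 9 cases, and tRNA synthetase genes in 14 of 19. The authors' deposited tables call 40 of the 53 higher than DMSO with EnnA and 10 with 17-AAG.

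Among its transcription factors, Atf4, the central activator, was at 342 FPKM with DMSO, 612 with EnnA and 274 with 17-AAG (log2 ratio 1.16, SE at most 0.25). Atf3 had a log2 ratio of 2.103 (SE at most 0.71). Ddit3, which encodes CHOP, was at 35.5 FPKM with DMSO, 227 with EnnA and 78.6 with 17-AAG. Its log2 ratio of 1.52 did not pass, with an SE of at most 0.75, and the gene shares a locus and is uncertain. Atf3 and Ddit3 were called higher than DMSO with both compounds in the authors' deposited tables, and Atf4 with EnnA alone.

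Effectors and feedback genes went in both directions. Gdf15, a stress cytokine, was at 40.9 FPKM with DMSO, 146 with EnnA and 26.2 with 17-AAG (log2 ratio 2.43, SE at most 0.48). Trib3, a pseudokinase that restrains ATF4, was at 40.2 FPKM with DMSO, 139 with EnnA and 51.7 with 17-AAG (log2 ratio 1.41, SE at most 0.46). Chac1, a glutathione-degrading enzyme usually counted among ATF4 targets, went the other way at 6.47 FPKM with DMSO, 1.87 with EnnA and 6.46 with 17-AAG (log2 ratio -1.38, SE at most 0.46). Eif2ak2, which encodes the RNA-activated kinase PKR and is itself interferon-induced, was at 20.3, 7.51 and 22.5 FPKM and also passed in favour of 17-AAG.

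In the metabolic arm, Asns, which makes asparagine, was at 330.3 FPKM with DMSO, 618 with EnnA and 235 with 17-AAG (log2 ratio 1.39, SE at most 0.26), Psph of serine synthesis at 69.3, 185 and 46.5 FPKM and Mthfd2 of mitochondrial folate metabolism at 80.7, 103 and 49.7 FPKM. All 3 passed, with EnnA above DMSO and 17-AAG below. Aldh1l2, a mitochondrial folate enzyme, was at 14.6, 69.4 and 17.3 FPKM. Of 9 amino acid transporter genes 3 passed, Slc7a3, Slc3a2 (84.5, 370.4 and 106 FPKM), the shared heavy chain of several transporters, and the glycine transporter gene Slc6a9 (5.03, 26.9 and 8.37 FPKM, sharing a locus). Their median of 0.40 turned to -0.06 with sums matched. Tryptophanyl-tRNA synthetase, Wars, was at 24.4, 83.4 and 27.4 FPKM, and Nars, the asparaginyl enzyme, at 205, 444 and 171 FPKM. The C/EBP-ATF letters were in 193 promoters (2.25%). Among these, 18 (9.33%) were at least 2-fold higher with EnnA and 14 (7.25%) with 17-AAG, beside 5.80% and 6.93% of all promoters searched. In the test, 42 of the 193 passed for EnnA and 34 for 17-AAG, not far from the 19.8% and 19% of all compared genes. Their median log2 ratio was 0.08, beside 0.03 for all promoters searched.

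Cytosolic chaperones of the heat shock response split by class. Of 50 genes, 9 passed in favour of 17-AAG and 5 in favour of EnnA, beside 19% and 19.8% of all compared genes, and the median was -0.03 (-0.38 with the trend removed). Of the 9 genes, 6 encode HSP90 itself or HSP70 and HSP110. Hsp90aa1, the inducible cytosolic HSP90, was at 215 FPKM with DMSO, 190.3 with EnnA and 335 with 17-AAG (log2 ratio -0.81, SE at most 0.22). Hsp90ab1, the constitutive form, was at 1522 FPKM with DMSO, 1589 with EnnA and 2639 with 17-AAG (log2 ratio -0.73, SE at most 0.25). Both were called higher than DMSO in the authors' deposited 17-AAG table and not called in the EnnA table.

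Hspa8, the constitutive HSP70, was at 1070 FPKM with DMSO, 453 with EnnA and 2219 with 17-AAG, 4.89-fold apart (log2 ratio -2.29, SE at most 0.40). It stood on opposite sides of DMSO with the compounds. Hsph1, an HSP110, was at 60.01 FPKM with DMSO, 73.9 with EnnA and 168 with 17-AAG (log2 ratio -1.18, SE at most 0.40). Hspa4l, a related gene, was at 23.5, 24.2 and 49.1 FPKM. Both were near DMSO with EnnA. The inducible HSP70 gene Hspa1b was at 0.953 FPKM with DMSO, 5.73 with EnnA and 6.06 with 17-AAG. Its log2 ratio of -0.07 had an SE of at most 0.92, so a difference of either sign could not be detected, and it has a near-identical neighbour, Hspa1a.

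**Figure D4:**
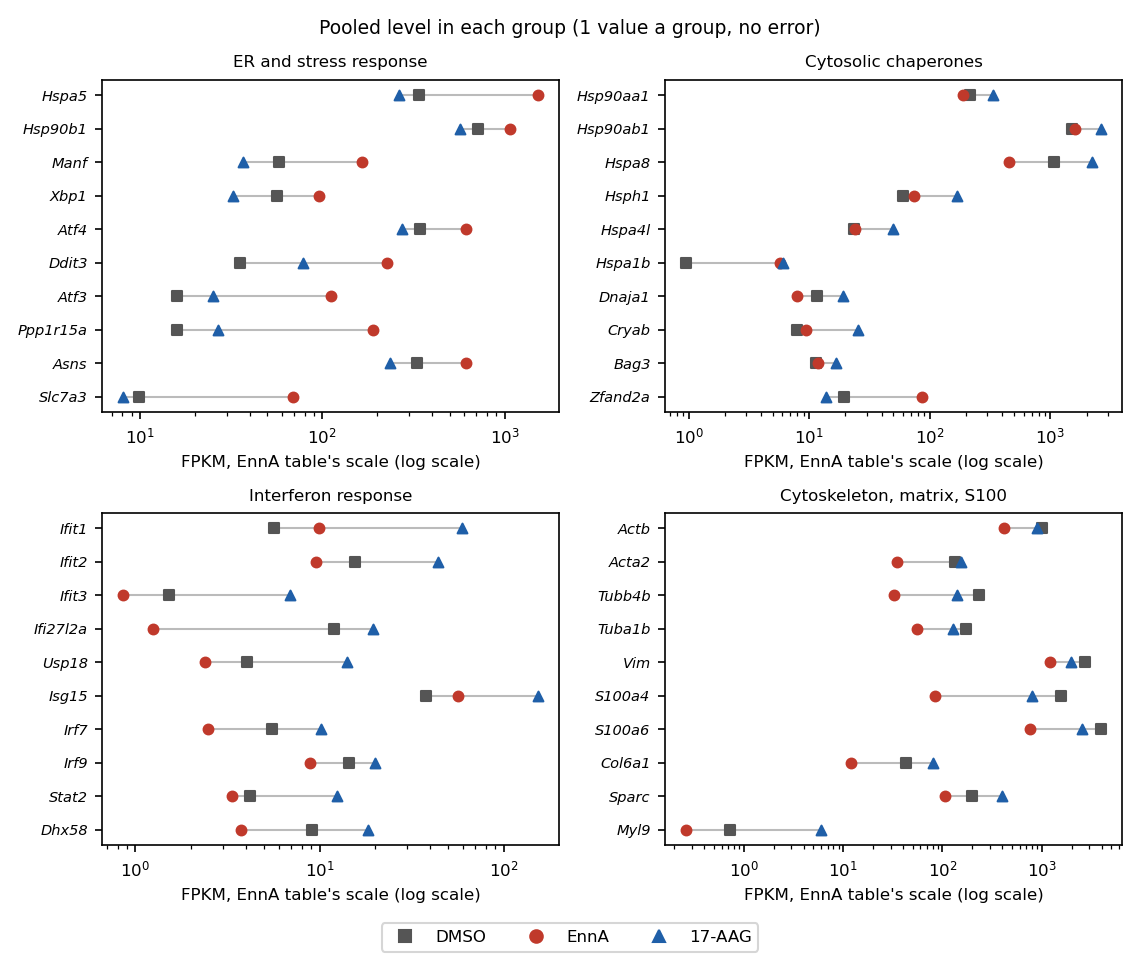
Pooled level in FPKM on the EnnA table's scale (horizontal, log axis) of 40 genes in 4 panels, with DMSO as grey squares, EnnA as red circles and 17-AAG as blue triangles, 1 value per group and no error. Hspa8 and the interferon genes lie furthest right with 17-AAG, and Hspa5, Ppp1r15a and Zfand2a furthest right with EnnA.

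Other heat shock genes included the small chaperone gene Cryab at 7.95 FPKM with DMSO, 9.45 with EnnA and 25.4 with 17-AAG (log2 ratio -1.33, SE at most 0.45) and the J-domain gene Dnaja1 at 11.7, 8.01 and 19.3 FPKM, which shares a locus. Both passed. Bag3, an HSP70 cochaperone, was at 11.3, 11.9 and 16.7 FPKM and did not pass. Of 13 HSP90 cochaperone genes 1 passed in each direction, Ppid (102, 147 and 85.8 FPKM) for EnnA and Unc45a (8.09, 5.84 and 9.33 FPKM) for 17-AAG. None of the 8 chaperonin genes passed, and their log2 ratios lay between -0.01 and 0.44. Zfand2a and the polyubiquitin gene Ubb (633, 824 and 450.1 FPKM) were the members of the last class that passed, both for EnnA. The heat shock element, GAA, TTC and GAA with 2 bases between neighbours, was in 40 promoters. Among these, 1 (2.5%) was at least 2-fold higher with EnnA and 2 (5%) with 17-AAG, beside 5.80% and 6.93% of all promoters searched. In the test, 10 of the 40 passed for EnnA and 4 for 17-AAG, and their median log2 ratio was 0.07.

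Genes of kinases and receptors that HSP90 holds as clients were compared at the level of RNA, where loss of the client protein is not seen. Of 31 genes 4 passed for EnnA and 8 for 17-AAG, with a median of -0.10 (-0.18 with the trend removed). The receptor tyrosine kinase genes leaned to 17-AAG, with 6 of 11 passing and a median of -0.60. Ddr1, a collagen receptor, was at 9.36 FPKM with DMSO, 5.56 with EnnA and 15.7 with 17-AAG (log2 ratio -1.35, SE at most 0.26). Axl was at 94.4, 45.1 and 91.2 FPKM. Erbb2, which encodes HER2, was at 2.995, 1.19 and 4.27 FPKM (log2 ratio -1.27, SE 0.55) and shares a locus. Egfr went the other way, at 2.65 FPKM with DMSO, 5.77 with EnnA and 2.73 with 17-AAG (log2 ratio 0.86, SE at most 0.33), as did Epha2 at 14.5, 25.1 and 12.9 FPKM. Among 20 cytosolic kinase genes Akt1 (56.5, 24.9 and 48.05 FPKM) and Plk1 (30.1, 14.6 and 24.2 FPKM) passed for 17-AAG and Cdk6 (12.9, 18.5 and 10.9 FPKM) and Lck (1.16, 3.799 and 1.13 FPKM) for EnnA.

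Interferon response genes were higher with 17-AAG, and this was the list with the lowest median. Of 43 genes, 29 passed in favour of 17-AAG and 3 in favour of EnnA, 27 against 0 were at least 2-fold apart, and the median log2 ratio was -1.31 (-1.77 with sums matched, -1.12 with the trend removed). Against DMSO, 30 of the 43 were called higher and 2 lower with 17-AAG, and 9 higher and 18 lower with EnnA, in the authors' deposited tables. Many of these genes had low levels, with a median of 10.1 FPKM in DMSO.

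Of 26 antiviral effector genes 21 passed for 17-AAG and 1 for EnnA. The gene that passed for EnnA was Ifitm3, at 955 FPKM with DMSO, 1029.6 with EnnA and 565 with 17-AAG (log2 ratio 0.86). Ifit1 had a log2 ratio of -2.48 (SE at most 0.86) and was above DMSO with both compounds. Ifit2 was at 15.7 FPKM with DMSO, 9.51 with EnnA and 43.9 with 17-AAG (log2 ratio -2.09, SE at most 0.41). Ifit3 was at 1.52 FPKM with DMSO, 0.857 with EnnA and 6.95 with 17-AAG (log2 ratio -2.097, SE at most 0.62). These related genes were below DMSO with EnnA. Usp18, which removes ISG15 from proteins and dampens the receptor, was at 4.01, 2.39 and 14.2 FPKM, Cmpk2, a mitochondrial nucleotide kinase, at 1.51, 0.559 and 6.46 FPKM, and Oas3, a sensor that makes oligoadenylates, at 2.18, 0.876 and 4.46 FPKM. Each was on opposite sides of DMSO with the compounds. Isg15, the ubiquitin-like modifier, was at 37.96 FPKM with DMSO, 56.5 with EnnA and 154 with 17-AAG (log2 ratio -1.43, SE at most 0.53), above DMSO with both.

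Among 17 sensors and signalling factors 8 passed for 17-AAG and 2 for EnnA. Stat2 was at 4.18, 3.37 and 12.4 FPKM and Irf9 at 14.4, 8.88 and 20.1 FPKM, both of which encode subunits of the transcription factor of type I interferon. Irf7, which amplifies interferon production, was at 5.54, 2.49 and 10.2 FPKM, Dhx58, which encodes the RNA helicase LGP2, at 9.05, 3.75 and 18.2 FPKM, and Ifih1, which encodes MDA5, at 2.55, 3.23 and 8.904 FPKM. With EnnA the levels of all of these but Ifih1 were below DMSO. Interferon-stimulated response element letters were in 260 promoters (3.04%). Among these, 38 (14.6%) were at least 2-fold higher with 17-AAG and 21 (8.08%) with EnnA, beside 6.93% and 5.80% of all promoters searched. The test showed no such lean, as 62 of the 260 passed for 17-AAG and 64 for EnnA. Their median log2 ratio was -0.10, beside 0.03 for all promoters searched.

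Antigen presentation genes passed in both directions, in numbers not far from those of all compared genes. Of 23 genes 6 passed for EnnA and 4 for 17-AAG, beside 19.8% and 19% of all compared genes, and the median of 0.28 turned to -0.18 with sums matched. H2-K1, a classical class I heavy chain, was at 61.1 FPKM with DMSO, 97.4 with EnnA and 38.9 with 17-AAG (log2 ratio 1.302, SE at most 0.23). H2-D1, another, was at 372, 632 and 310.3 FPKM. B2m, the class I light chain, was at 2007 FPKM with DMSO, 3469 with EnnA and 1525 with 17-AAG (log2 ratio 1.19, SE at most 0.24) and shares a locus. With the trend removed its ratio was 0.22. Class I genes are near-identical in part, so their reads may be split. Tapbp, which encodes tapasin of the loading complex, went the other way at 33.7 FPKM with DMSO, 20.4 with EnnA and 45.97 with 17-AAG (log2 ratio -1.14, SE at most 0.23).

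Checkpoint ligands differed one by one. Cd47, the signal against phagocytosis, was at 57.7 FPKM with DMSO, 114 with EnnA and 40.8 with 17-AAG (log2 ratio 1.46, SE at most 0.29). Lgals9, which encodes galectin-9, was at 79.4 FPKM with DMSO, 41.8 with EnnA and 106 with 17-AAG (log2 ratio -1.33, SE at most 0.27). These lay on opposite sides of DMSO with the compounds, in opposite senses. Cd274, which encodes PD-L1, was at 1.84 FPKM with DMSO, 3.07 with EnnA and 2.67 with 17-AAG, and its log2 ratio of 0.15 (SE 0.28) did not pass. The authors' deposited tables call it higher than DMSO with each compound.

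Cytokine genes with the larger ratios were higher with EnnA. Of 21 chemokine and cytokine genes 6 passed for EnnA and 2 for 17-AAG. The median of 0.28 turned to -0.17 with sums matched. Beside Il23a and Ccl4, Tnf was at 8.52 FPKM with DMSO, 27.95 with EnnA and 5.59 with 17-AAG (log2 ratio 2.13, SE at most 0.46). Csf2, which encodes GM-CSF, was at 4.43 FPKM with DMSO, 10.4 with EnnA and 1.63 with 17-AAG (log2 ratio 2.11, SE at most 0.47). Cxcl1, a neutrophil chemokine, was at 185 FPKM with DMSO, 281 with EnnA and 102 with 17-AAG (log2 ratio 1.45, SE at most 0.26). All of these were above DMSO with EnnA and below it with 17-AAG. Ccl2, a monocyte chemokine, was at 2322 FPKM with DMSO, 1437 with EnnA and 837 with 17-AAG, below DMSO with both, and did not pass. Cxcl10, a T cell chemokine induced by interferon, was at 24.7 FPKM with DMSO, 95.9 with EnnA and 86.8 with 17-AAG and did not pass (log2 ratio 0.14, SE at most 0.66). Csf3, which encodes G-CSF, was at 12.3, 2.67 and 1.79 FPKM and did not pass (log2 ratio 0.39, SE at most 0.87). Cx3cl1, a membrane-bound chemokine, was at 4.54, 1.398 and 5.12 FPKM and passed for 17-AAG.

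The NF-kB pathway had 9 of 21 genes passing for EnnA and 2 for 17-AAG, with a median of 0.32 that turned to -0.14 with sums matched. Its largest ratios were those of feedback inhibitors and targets. Nfkbia, the inhibitor IkB-alpha, was at 256 FPKM with DMSO, 884 with EnnA and 263 with 17-AAG (log2 ratio 1.74, SE at most 0.47). Nfkbib, IkB-beta, was at 28.7, 98.9 and 22.9 FPKM, and Tnfaip3, the deubiquitinase A20, at 6.95, 25.9 and 6.52 FPKM. None of these 3 was called against DMSO with 17-AAG in the authors' deposited table. Ptgs2, which encodes cyclooxygenase-2, was at 5.63, 9.78 and 3.88 FPKM. Of the subunits, Relb (18.9, 40.6 and 17.4 FPKM) and Rel (4.902, 11.5 and 5.16 FPKM) passed and Rela (23.3, 33.2 and 25.4 FPKM), Nfkb1 (23.2, 18.5 and 23.5 FPKM) and Nfkb2 (28.5, 38.1 and 30.9 FPKM) did not. Vcam1, an adhesion receptor, passed for 17-AAG at 1.14, 0.531 and 1.82 FPKM. The NF-kB letters GGGA and TTTCC with 1 base between them were in 38 promoters. Among these, 3 (7.89%) were at least 2-fold higher with EnnA and 1 (2.63%) with 17-AAG, beside 5.80% and 6.93% of all promoters searched. In the test, 4 of the 38 passed for EnnA and 6 for 17-AAG, and their median log2 ratio was -0.05.

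Genes linked to immunogenic cell death were mixed, with 2 of 16 passing for EnnA and 4 for 17-AAG, beside 19.8% and 19% of all compared genes. The median of 0.08 turned to -0.37 with sums matched and was 0.06 with the trend removed. Calr, which encodes calreticulin, an ER lectin that dying cells can expose, was at 162 FPKM with DMSO, 403 with EnnA and 162 with 17-AAG (log2 ratio 1.31, SE at most 0.36). Panx1, a channel that releases ATP, was at 12.98, 16.4 and 7.04 FPKM. Anxa1, a ligand of formyl peptide receptors, was at 922 FPKM with DMSO, 221 with EnnA and 558 with 17-AAG (log2 ratio -1.33, SE at most 0.54). Tlr4 was at 12.8, 4.14 and 13.5 FPKM. Casp8, the initiator caspase of death receptors, was at 45.4, 18.9 and 36.8 FPKM and passed for 17-AAG.

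Feedback genes of ERK and immediate early genes were higher with EnnA. Of 26 genes 16 passed for EnnA and 2 for 17-AAG, 10 against 0 were at least 2-fold apart, and the median was 0.71 (0.25 with sums matched). The phosphatase gene Dusp4 was at 63.97 FPKM with DMSO, 120.1 with EnnA and 31.6 with 17-AAG (log2 ratio 1.89, SE at most 0.34). Dusp1 was at 25.1, 60.8 and 18.01 FPKM and Dusp10 at 16.8, 35.7 and 14.5 FPKM. Etv4, an ETS factor, was at 38.3 FPKM with DMSO, 36.3 with EnnA and 15.8 with 17-AAG, and Dusp5, which is specific for ERK, at 15.8 FPKM with DMSO, 15.4 with EnnA and 7.16 with 17-AAG. The last pair was at the DMSO level with EnnA and below it with 17-AAG. Klf2 was at 17.5 FPKM with DMSO, 19.02 with EnnA and 3.49 with 17-AAG (log2 ratio 2.16, SE at most 0.60). Junb was at 68.4, 157 and 52.5 FPKM and Klf6 at 85.5, 203 and 65.6 FPKM. Against DMSO, 16 of the 26 were called lower with 17-AAG and 9 higher with EnnA in the authors' deposited tables.

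Targets of p53 and death genes gave 11 of 37 passing for EnnA and 6 for 17-AAG, with a median of 0.23 that turned to -0.23 with sums matched. Gadd45a was at 103 FPKM with DMSO, 266 with EnnA and 82.2 with 17-AAG (log2 ratio 1.68, SE at most 0.37, sharing a locus). Pmaip1, which encodes NOXA, was at 12.8, 31.7 and 15.3 FPKM. Cdkn1a, the cyclin kinase inhibitor p21, was at 57.3 FPKM with DMSO, 53.05 with EnnA and 33.4 with 17-AAG (log2 ratio 0.65, SE at most 0.24). Bmf, a BH3-only death gene, was at 1.64 FPKM with DMSO, 0.385 with EnnA and 4.66 with 17-AAG (log2 ratio -2.03, SE at most 0.64), and Casp6 (20.01, 5.63 and 19.003 FPKM) and Casp12 (16.5, 6.99 and 20.5 FPKM) also passed for 17-AAG. Bcl2l1, which encodes BCL-XL, was at 95.1, 122 and 73.4 FPKM and passed for EnnA.

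Ribosomal protein genes were higher with EnnA, and 39 of 46 passed with 0 in the other direction. The median log2 ratio of 0.89 became 0.22 with the trend removed, and the 13 genes at least 2-fold apart became 2. The median DMSO level of these genes was 319.4 FPKM, beside 14.8 FPKM over all compared genes. Rps23 was at 331 FPKM with DMSO, 533 with EnnA and 209.99 with 17-AAG (log2 ratio 1.34, SE at most 0.23). Rps3 was at 2340.4, 3876 and 1757 FPKM and Rpl12 at 89.8, 267 and 94.1 FPKM, of which the last pair shares a locus. The authors' deposited tables call 35 of 46 higher than DMSO with EnnA and 19 lower with 17-AAG. All are uncertain in size because of processed copies.

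Factors of ribosome assembly and the MYC network gave 18 of 33 passing for EnnA and 1 for 17-AAG, with a median of 0.59 (0.13 with sums matched, 0.36 with the trend removed). Myc was at 133 FPKM with DMSO, 267 with EnnA and 162 with 17-AAG (log2 ratio 0.71, SE at most 0.29). Odc1, the first enzyme of polyamine synthesis, was at 464 FPKM with DMSO, 427 with EnnA and 136 with 17-AAG (log2 ratio 1.65, SE at most 0.46). Srm, the next enzyme, was at 69.97, 154 and 56.2 FPKM, and Nop58 of the small nucleolar ribonucleoproteins at 188, 418 and 171 FPKM. Odc1 was near DMSO with EnnA and below it with 17-AAG, while Srm and Nop58 were above DMSO with EnnA.

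Proteasome, autophagy and lysosome genes passed more often for EnnA than for 17-AAG. Of 32 proteasome genes 14 passed for EnnA and 0 for 17-AAG, but the median of 0.43 went to -0.02 with sums matched and to 0.00 with the trend removed. Psmd11, a lid subunit, was at 41.6 FPKM with DMSO, 61.7 with EnnA and 27.1 with 17-AAG (log2 ratio 1.16, SE 0.22). Of 39 autophagy and lysosome genes 18 passed for EnnA and 2 for 17-AAG, with a median of 0.48 (0.02 with sums matched, 0.18 with the trend removed). Sqstm1, the autophagy receptor p62, was at 331 FPKM with DMSO, 1512 with EnnA and 437 with 17-AAG (log2 ratio 1.79, SE at most 0.56). Atg7, the activating enzyme, was at 13.2, 29.4 and 10.01 FPKM, and Atp6v1b2 of the proton pump at 90.7, 228 and 86.6 FPKM.

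Respiratory chain genes and mitochondrial chaperone and protease genes that passed were nearly all higher with EnnA. Of 38 respiratory chain genes 13 passed for EnnA and 0 for 17-AAG, and the median of 0.34 turned to -0.12 with sums matched and to -0.21 with the trend removed. Cox5b was at 46.05 FPKM with DMSO, 34.2 with EnnA and 10.3 with 17-AAG (log2 ratio 1.64, SE at most 0.57) and Atp5g1 at 79.8 FPKM with DMSO, 132 with EnnA and 44.7 with 17-AAG (log2 ratio 1.54, SE at most 0.27). Of 16 mitochondrial chaperone and protease genes 6 passed for EnnA and 1 for 17-AAG, with a median of 0.40 that went to -0.06 with sums matched and to 0.21 with the trend removed. Lonp1, the matrix protease, was at 51.5, 119.9 and 61.8 FPKM.

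Sterol genes were often called lower than DMSO with each compound. Of 31 genes 8 passed for EnnA and 2 for 17-AAG, with a median of 0.02 (-0.44 with sums matched, 0.08 with the trend removed). The authors' deposited tables call 16 lower than DMSO with EnnA and 22 with 17-AAG. Sqle, squalene epoxidase, was at 23.005 FPKM with DMSO, 39.98 with EnnA and 14.4 with 17-AAG (log2 ratio 1.41, SE at most 0.26). Insig1, which retains the sterol sensor in the ER, was at 27.9 FPKM with DMSO, 31.5 with EnnA and 11.6 with 17-AAG (log2 ratio 1.37, SE at most 0.35). Npc1, which exports cholesterol from lysosomes, was at 10.7, 38.4 and 10.96 FPKM and shares a locus. Acat2 went the other way at 7.62, 1.101 and 5.12 FPKM.

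Among 16 genes of fatty acid synthesis 2 passed for EnnA and 6 for 17-AAG, and the median was -0.03 (-0.07 with the trend removed). The desaturase gene Scd2 was at 139 FPKM with DMSO, 51.8 with EnnA and 123 with 17-AAG (log2 ratio -1.23, SE at most 0.38). Scd1 was at 31.7, 23.7 and 42.1 FPKM. The letters TCAC and CCAC with 1 base between them, of a sterol regulatory element, were in 102 promoters. Among these, 5 (4.90%) were at least 2-fold higher with EnnA and 11 (10.8%) with 17-AAG, beside 5.80% and 6.93% of all promoters searched. In the test, 18 of the 102 passed for EnnA and 25 for 17-AAG, and their median log2 ratio was -0.11.

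Few cell cycle genes were higher with EnnA. Of 69 genes 2 passed for EnnA and 13 for 17-AAG, beside 19.8% and 19% of all compared genes, with a median of -0.21 (-0.42 with the trend removed). The authors' deposited tables call 42 lower than DMSO with EnnA and 28 with 17-AAG. Mki67, the proliferation marker, was at 18.96 FPKM with DMSO, 12.5 with EnnA and 21.6 with 17-AAG (log2 ratio -0.75, SE at most 0.21). E2f1 was at 13.8, 6.67 and 15.2 FPKM and Cenpe, a kinetochore motor, at 27.6, 11.2 and 26.9 FPKM. Ccnd1, which encodes cyclin D1, was at 116 FPKM with DMSO, 51.1 with EnnA and 72.1 with 17-AAG and did not pass. Cdt1, a replication licensing factor, passed for EnnA at 50.5, 75.6 and 39.6 FPKM.

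Tubulin genes had a median well below 0, while the 14 listed microtubule motor genes had a median near 0. Of the 25 genes of both kinds 10 passed for 17-AAG and 1 for EnnA, with a median of -0.51. Of the 14 motor genes 4 passed for 17-AAG and 1 for EnnA, 0 were at least 2-fold apart, and the median was -0.02 (-0.17 with the trend removed). Among 24 kinesin genes picked by symbol after their values were seen, 8 passed for 17-AAG and 0 for EnnA. The kinesin median was -0.37 (-0.39 with the trend removed and -0.83 with sums matched). Of 11 tubulin genes 6 passed for 17-AAG and 0 for EnnA, and the median log2 ratio was -1.17. Tubb4b was at 231 FPKM with DMSO, 32.5 with EnnA and 141 with 17-AAG (log2 ratio -2.08, SE at most 0.72). Tubb2a was at 33.9, 9.01 and 26.8 FPKM and Tuba1b at 173, 55.1 and 127 FPKM, all below DMSO with both compounds. Near-identical tubulin copies make single members uncertain. Against DMSO, 11 of the 11 were called lower with EnnA and 8 with 17-AAG in the authors' deposited tables.

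Of 33 genes of actin and its SRF, TGF-beta and YAP programmes 4 passed for EnnA and 14 for 17-AAG, with a median of -0.41 (-0.87 with sums matched). Actb, a frequent reference gene, was at 1007 FPKM with DMSO, 418 with EnnA and 891 with 17-AAG (log2 ratio -1.09, SE at most 0.34). Actg1 was at 142, 47.8 and 147 FPKM. Acta2, smooth muscle actin, was at 133 FPKM with DMSO, 34.5 with EnnA and 154 with 17-AAG (log2 ratio -2.13, SE at most 0.50). Myl9, a myosin light chain, was at 0.728, 0.262 and 5.94 FPKM. Of the pathway targets, Id3 was at 45.7 FPKM with DMSO, 57.2 with EnnA and 215 with 17-AAG (log2 ratio -1.89, SE at most 0.57), and the YAP targets Ctgf (0.863, 0.244 and 2.65 FPKM) and Ankrd1 (0.655, 0.227 and 3.11 FPKM) passed at low levels. The reference gene Gapdh was at 639 FPKM with DMSO, 651 with EnnA and 485 with 17-AAG and did not pass (log2 ratio 0.42, SE 0.21).

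Matrix genes with the larger ratios were higher with 17-AAG. Of 37 genes of matrix and adhesion 12 passed for 17-AAG and 8 for EnnA, and the median was -0.05. Col6a2 was at 13.4 FPKM with DMSO, 5.96 with EnnA and 25.8 with 17-AAG (log2 ratio -1.94, SE at most 0.37). Sparc, a collagen-binding protein, was at 197 FPKM with DMSO, 105 with EnnA and 400.3 with 17-AAG (log2 ratio -1.92, SE at most 0.34). Col3a1 was at 63.7, 27.3 and 64.05 FPKM. The first pair stood above DMSO with 17-AAG and below it with EnnA. The cathepsin genes Ctsl (713, 1029.8 and 471 FPKM) and Ctsb (242, 334 and 173 FPKM, sharing a locus) passed for EnnA. Of 8 S100 genes, with a median of -0.54 (-1.20 with the trend removed), 3 passed for 17-AAG, S100a4, S100a11 and S100a6 (3965, 765 and 2518 FPKM), all below DMSO with EnnA. S100a8, a subunit of calprotectin, was at 220.3, 60.7 and 26.003 FPKM and did not pass. Vim, which encodes vimentin, was at 2746 FPKM with DMSO, 1209 with EnnA and 1966 with 17-AAG and did not pass (log2 ratio -0.70, SE at most 0.33).

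Metal and ion genes gave 10 of 35 passing for EnnA and 3 for 17-AAG, with a median of 0.19 that turned to -0.26 with sums matched. The iron storage genes Fth1 (4511 FPKM with DMSO, 11845 with EnnA and 4435 with 17-AAG, log2 ratio 1.42, SE at most 0.37) and Ftl1 (1279, 4083 and 1604 FPKM) passed for EnnA, as did the iron importer gene Slc11a2 (40.99, 94.4 and 30.5 FPKM). Tfrc, the transferrin receptor, was at 75.7, 328 and 148 FPKM and did not pass. The metallothionein genes Mt2 (1298 FPKM with DMSO, 3688 with EnnA and 1026 with 17-AAG, log2 ratio 1.85, SE at most 0.40) and Mt1 (746, 2342 and 850.4 FPKM) were above DMSO with EnnA. With the trend removed the log2 ratios of Fth1, Mt2 and Mt1 were 0.76, 0.67 and 0.68. Of 11 genes for sodium, potassium and osmotic balance 3 passed. Of 11 calcium genes Atp2a2, the ER calcium pump, passed for EnnA at 37.1, 73.8 and 42.2 FPKM and 2 passed for 17-AAG.

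Of 29 genes of the NRF2 and glutathione systems 10 passed for EnnA and 6 for 17-AAG, with a median of 0.21 that turned to -0.25 with sums matched and to -0.10 with the trend removed. The transferases went in both directions. Gsto1 was at 177 FPKM with DMSO, 460.2 with EnnA and 134 with 17-AAG (log2 ratio 1.78, SE at most 0.37), whereas Gstt1 was at 36.1 FPKM with DMSO, 11.98 with EnnA and 56.9 with 17-AAG (log2 ratio -2.16, SE at most 0.42) and Mgst3 at 40.4, 4.24 and 24.7 FPKM. Nqo1, which reduces quinones and so acts on 17-AAG itself, was at 74.4 FPKM with DMSO, 83.8 with EnnA and 38.3 with 17-AAG (log2 ratio 1.11, SE at most 0.28). Of 9 genes of efflux and drug metabolism 6 passed for EnnA and 2 for 17-AAG. Abcb1b, a P-glycoprotein gene, was at 10.2 FPKM with DMSO, 22.8 with EnnA and 7.87 with 17-AAG (log2 ratio 1.42, SE at most 0.33). Abcc1 was at 36.2, 74.9 and 35.3 FPKM and Abcg2, in the other direction, at 25.04, 13.4 and 28.6 FPKM.

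Glycolysis and hypoxia genes gave 6 of 32 passing for EnnA and 8 for 17-AAG, with a median of -0.03 (-0.30 with the trend removed). Slc2a1, the glucose transporter GLUT1, was at 92.5 FPKM with DMSO, 144 with EnnA and 67.2 with 17-AAG (log2 ratio 1.09, SE at most 0.21), and the phosphofructokinase genes Pfkl (34.9, 22.8 and 50.04 FPKM) and Pfkm (22.97, 11.3 and 29.4 FPKM, sharing a locus) went the other way. Car12, a membrane carbonic anhydrase, was at 5.02 FPKM with DMSO, 15.6 with EnnA and 3.35 with 17-AAG (log2 ratio 1.93, SE at most 0.44), in the same direction as Car6. Bnip3, a hypoxia-induced mitophagy receptor, was at 49.4, 21.01 and 53.04 FPKM and passed for 17-AAG.

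Of 17 nuclear receptor genes 3 passed for EnnA and 7 for 17-AAG, with a median of -0.42 (-0.16 with the trend removed). Nr1d1, the clock repressor REV-ERB-alpha, was at 19.4 FPKM with DMSO, 86.8 with EnnA and 14.6 with 17-AAG (log2 ratio 2.49, SE at most 0.55), opposite to Vdr. Of 28 splicing factor genes 6 passed for EnnA and 4 for 17-AAG, and the median of 0.22 turned to -0.23 with sums matched and went to 0.00 with the trend removed. Among them were Rbm39 at 184, 462 and 192 FPKM and Srsf5 at 63.3, 28.2 and 65.5 FPKM at the 2 ends. Of 12 genes of epithelial and mesenchymal identity 3 passed for EnnA and 2 for 17-AAG, and the median of 0.26 turned to -0.20 with sums matched.

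Of the 28 genes fixed by name, 17 passed and 11 did not. Among the 58 genes named by size or by name, the largest direct ratios were 5.90 for Car6 in favour of EnnA and -3.87 for Cxcr7 in favour of 17-AAG. Of the remaining letters searched in promoters, the E-box CACGTG was in 884 promoters. Among these, 60 (6.79%) were at least 2-fold higher with EnnA and 53 (5.995%) with 17-AAG, near the 5.80% and 6.93% of all promoters searched. In the test, 211 of the 884 passed for EnnA and 152 for 17-AAG, and their median log2 ratio was 0.10.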

How the data were processed

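RNA sequencing was done on 6 libraries of E0771 cells, 2 each for DMSO, EnnA and 17-AAG. Per the submitters' processing notes, STAR, Cufflinks, Cuffdiff and the mouse build mm9 were used. Their versions are not given in these sources. The group values in the authors' deposited tables were read as FPKM, pooled over the libraries of a group. The log2 fold changes in the deposited tables are DMSO over compound, and their sign was turned here. The p-value and q-value columns are those the authors deposited, with a lowest p of 5e-05. With FPKM alone, depth is unknown and no interval for counting error can be given.

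The gene members, lists and named genes were chosen with earlier results of these data known. Genes in both tables were joined by symbol, 17-AAG values were brought to the EnnA table's scale through the DMSO medians, and log2 ratios were taken with a pseudocount of 1 FPKM. A 2-fold ratio is a description without a test. The SE of a log2 change is the one that turns the change into the authors' 2-sided p under a normal distribution, and is an upper limit at the lowest p. The difference between the compounds was tested by a z test with Benjamini-Hochberg adjustment, and the errors were combined as independent although DMSO was shared, which widens them. It rests on a normal approximation and on pooled values, so single genes carry no p, and it speaks for these libraries, whose spread may be technical. The plan had allowed for a deposited test statistic, in place of which the p was used. The procedure was run on simulated data, in which the changes of the compounds were drawn independently and only EnnA had true changes. Those data had no shared DMSO and no genes changed by both compounds, so they do not show how the test performs there.

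Named were the 15 genes with the largest ratio in each direction among genes with at least 5 FPKM in 1 compound that passed, up to 5 genes with the largest ratio per class of a list with any gene called on opposite sides of DMSO, and 28 genes by name. Some listed genes are not reported singly here. Genes named only as holders of a promoter motif were chosen after their values were seen. Promoter windows are RefSeq's and lengths GENCODE M21's, neither on the files' build, and were matched by symbol. A comparison of motif shares between the gene sets was void, since only 76.7% of the genes at least 2-fold higher with EnnA and 79.6% of those higher with 17-AAG had a promoter, so motif holders are described instead. Other pseudocounts, scalings, filters and thresholds were tried. Python 3.11.15, pandas 2.3.3 and scipy 1.17.1 were used.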

Additional observations from a re-analysis of the deposited data

How the results depend on the processing

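The counts at 2-fold (648 higher with EnnA, 745 higher with 17-AAG) moved by more than 1.5 times under some of 13 alternatives. For genes higher with 17-AAG, pseudocounts of 0.1 and 5 FPKM gave 1188 and 194. Thresholds of 1.5-fold gave 1932 and 1892 genes, and 4-fold gave 50 and 64. With FPKM sums matched, which was chosen after seeing the data, 204 were higher with EnnA and 2064 with 17-AAG, so the split between the directions rests on the scaling. What causes these moves, beyond what each setting changes by construction, was not tested. With the trend in level and length removed, also chosen after seeing the data, the counts were 518 and 630. Without scaling they were 481 and 968, and with the median ratio set to 0 they were 595 and 801. Among the z test counts (2110 and 2059), a q under 0.01 left 1372 higher with EnnA, a 2-fold minimum left 609 and 710, and leaving out genes at the lowest p in either table left 699 and 660. Of the 58 genes named by size or by name, 0 of those at least 2-fold apart changed sign under any of the 13 alternatives. This was largely fixed in advance. Another pseudocount, filter or threshold keeps the sign, and matching the sums moves a log2 ratio by only 0.46. No paired analysis was possible because the deposited values are pooled over the libraries of a group, and for the same reason no library could be left out. Depth per library is unknown, so what it limits cannot be stated.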

Other observations

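Gene families defined by symbol, chosen after their values were seen and given with no test of the family, extend the description. Of 274 zinc finger genes named Zfp, which mostly encode transcriptional repressors, 108 passed in favour of 17-AAG and 20 in favour of EnnA, 41 against 3 were at least 2-fold apart, and the median log2 ratio was -0.31. With the trend in level and length removed, these became 23 against 2 and -0.11. Of 33 TRIM genes, ubiquitin ligases with roles in antiviral defence, 15 passed for 17-AAG and 0 for EnnA, with a median of -0.46 (-0.40 with the trend removed). The 8 guanylate-binding protein and immunity-related GTPase genes had ratios from -2.06 to -0.55 with 6 passing, and the 3 apolipoprotein L genes had a median of -2.40 (-2.07 with the trend removed). Of 15 collagen genes 10 passed for 17-AAG and 1 for EnnA (median -1.20, and -1.10 with the trend removed), and of 13 intraflagellar transport genes 8 passed for 17-AAG (median -0.53, and -0.55 with the trend removed). Mitochondrial ribosomal protein genes were higher with EnnA, with 39 of 75 passing and 0 in the other direction (median 0.55, 0.26 with the trend removed and 0.09 with sums matched), as were 10 of 13 subunit genes of the mitochondrial import complexes named Timm (median 0.83, 0.53 with the trend removed and 0.37 with sums matched). The 37 mitochondrial carrier genes named Slc25 were mixed, with 5 passing for EnnA and 8 for 17-AAG (median -0.02, and -0.48 with sums matched). Of 25 genes named Sec, of the translocon and vesicle coats, 11 passed for EnnA and 2 for 17-AAG (median 0.49, 0.44 with the trend removed and 0.04 with sums matched). Of all compared genes, 19.8% passed for EnnA and 19% for 17-AAG.

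The small nucleolar RNA entries Snord82, Snord33, Snord89 and Snora68 are listed at 0 with 17-AAG, and Snora5c and Snora43 at 0 with EnnA, beside DMSO levels of 10764.7, 1255.6, 1071.9, 252.4, 160.5 and 53.9 FPKM in that order. All but Snord89 share a locus. With a level listed at 0, none of these entries has an SE, so all of them, Snord89 included, are uncertain. No ratio is given for them.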
